A study of Bos taurus with 96 samples.

Results

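The cattle genes described here belong to the major histocompatibility complex (MHC) class I group and were followed in liver and skeletal muscle. They are 2 that are both named BOLA, ENSBTAG00000022590 and ENSBTAG00000002069 (called BOLA-22590 and BOLA-02069 from here), and JSP.1 (ENSBTAG00000020116). They were taken by identifier from the count files, 3 of 24616 genes listed, and all 3 passed the filter on low counts in both tissues. BOLA-22590 and JSP.1 were selected on their genotype fold changes, which the study's own comparison had called, so genotype values are described below without a test.

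The libraries came from 16 Holstein cows of one herd, 8 of good (Fert+) and 8 of poor (Fert-) genetic merit for fertility, of mixed first and second parity. RNA was taken from puncture biopsies of the liver and punch biopsies of the semitendinosus muscle of every cow. Sampling in late pregnancy (LP), early lactation just after calving (EL) and mid lactation (ML) gave 96 libraries, 8 for each genotype, tissue and time-point. The unit of replication is the cow, and no treatment was applied.

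MHC class I molecules are made of a polymorphic heavy chain, a short invariant chain (B2M) and a peptide, and present peptides from inside the cell to CD8 T cells. Nearly all nucleated cells carry them, and interferons raise their transcription. In cattle, haplotypes differ in which classical class I heavy chain genes they carry and in how many, and class I alleles are among the most variable coding sequences of the genome. BOLA is the general symbol for bovine leukocyte antigen genes, and JSP.1 is the symbol of a bovine class I heavy chain.

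Total counts per library ran from 14966847 to 26358063 in liver and from 15279337 to 22018740 in muscle. The tissues were as labelled: all 10 hepatocyte markers were higher in every liver library than in any muscle library, and all 11 identifiers of the 10 muscle markers were higher in every muscle library. Each library was compared with the other libraries of each cow over 50 genes that vary between cows, the 3 genes of interest left out. Of 96 libraries, 93 were most like their own cow. The 50 genes were chosen for differing between the labelled cows in most of these same libraries, so that count is in part built in. The liver library labelled cow 829, LP (Fert-) correlated at r = 0.240 with its own cow and 0.734 with cow 3434, and the liver library labelled cow 3434, EL (Fert+) at 0.103 with its own cow and 0.739 with cow 829. The third, cow 3847 in liver at EL, was like no cow closely, at 0.323 with its own cow and 0.427 with cow 3397. The median with the own cow was 0.756 over all libraries. The labels were kept, and results that rest on the first 2 libraries are also given without them. Of all libraries, 13 had counts on genes that were at or near 0 elsewhere, that of cow 3847 in liver at EL among them. They are called counting batch B, from the counts and not from a label, and the other 83 batch A.

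Most of the variation of each gene lay between cows. Values are CPM (counts per 1000000 counts of the library) after scaling by the trimmed mean of M-values (TMM), which assumes that most genes do not differ between libraries. Of the variance of log2(CPM + 1) around the time-point means in muscle, 99.5% lay between cows for BOLA-22590, 94.9% for JSP.1 and 93.1% for BOLA-02069. The median over the 11886 genes that passed the filter in both tissues was 43.9%, and 2, 13 and 23 of those genes had a larger share than BOLA-22590, JSP.1 and BOLA-02069. Genotype differs between cows and was not removed. The genotype difference on which BOLA-22590 and JSP.1 were selected is therefore part of their shares and ranks. In liver the shares were 86.1%, 76.6% and 80.1%, beside a median of 43.7%. With batch A alone and without the 2 liver libraries in doubt, the liver shares rose to 97.0% for BOLA-22590, 93.1% for JSP.1 and 85.2% for BOLA-02069, beside a median of 50.1%.

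For BOLA-22590 the cows were divided into 2 sets, high and low, by a fixed CPM value in muscle. Its reads were counted against a single reference genome with few mismatches allowed, so a level here is that of reads close to the reference sequence of this gene, and the alleles of the cows were not analysed here. In muscle, 7 cows were at 49.6 to 166 CPM in all 3 libraries and the other 9 cows were at 2.47 to 26.3 CPM in all 3 libraries, so that the nearest libraries of the 2 sets were 1.89-fold apart. The high cows were 430 and 3397 among Fert+ and 426, 829, 996, 1000 and 1179 among Fert-. Cow 1000 ranged from 129 to 146 CPM in muscle, whereas cow 3434 ranged from 3.23 to 4.12 CPM. Between the 2, cow 164 (Fert-) was the highest of the low cows, at 16.6 to 26.3 CPM. Levels within the high set were uneven too. Their muscle medians were 143 CPM in cow 426 and 135 CPM in cow 1000, but 68.8 CPM in cow 996.

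The liver held the same 7 cows apart. Without the 2 libraries in doubt, the high cows had 84.3 to 240 CPM and the low cows 3.68 to 25.5 CPM over 46 liver libraries. The 2 libraries in doubt fell on the wrong side of the gap for their labels. The library labelled cow 829, LP had 5.60 CPM where the others of that cow had 84.3 and 92.5 CPM, and the library labelled cow 3434, EL had 89.0 CPM where the others had 3.68 and 5.40 CPM.

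**Figure D1:**
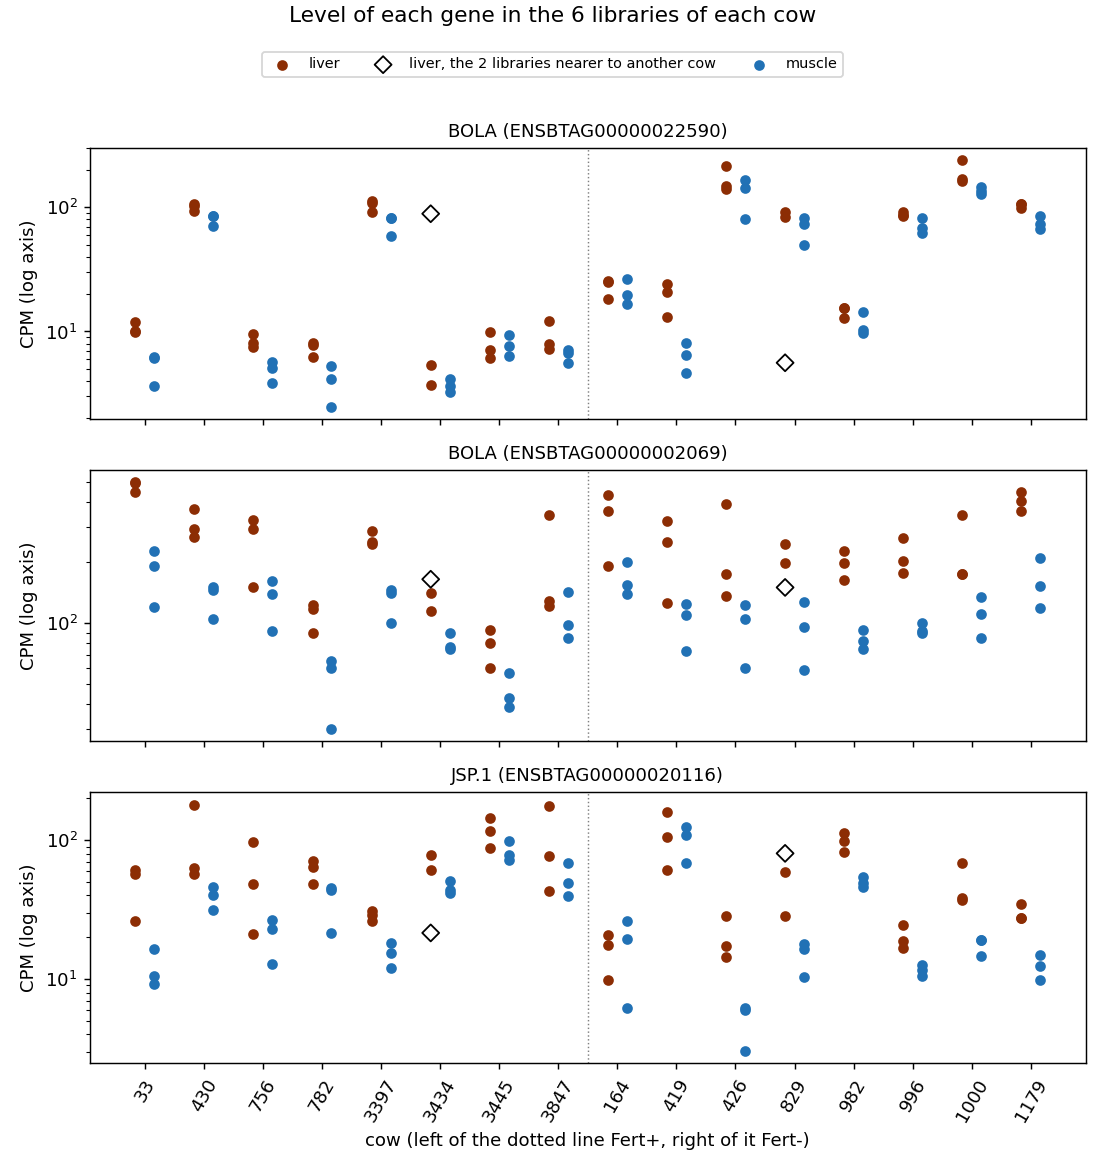
CPM on a log axis (vertical) of each gene in the 3 liver and 3 muscle libraries of each of the 16 cows (horizontal), with Fert+ cows on the left and Fert- cows on the right. For BOLA-22590 the 6 libraries of a cow lie together, at or above 49.6 CPM in 7 cows and at or below 26.3 CPM in 9, except the 2 liver libraries drawn as diamonds.

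JSP.1 also differed between cows but without a gap. In muscle the cow mean ran from 5.06 CPM in cow 426 to 100 CPM in cow 419, a 19.8-fold range, and in liver from 16.1 CPM in cow 164 to 116 CPM in cow 3445, a 7.22-fold range. Several cows with much BOLA-22590 had little JSP.1: cow 426 had 80.8 to 166 CPM of BOLA-22590 and 3.04 to 6.19 CPM of JSP.1 in muscle, whereas cow 419 had 4.62 to 8.11 CPM of BOLA-22590 and 68.0 to 123 CPM of JSP.1. Cow 430 was high for BOLA-22590 (70.8 to 85.5 CPM) and had 31.4 to 46.1 CPM of JSP.1, and cow 33 was low for BOLA-22590 (3.67 to 6.24 CPM) with only 9.20 to 16.5 CPM of JSP.1. A low level of one gene thus did not always go with a high level of the other.

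The ratio of JSP.1 to BOLA-22590 within a library does not depend on how the library was scaled, and gene length cancels when the ratio is compared between cows. In muscle this ratio ran from 0.0374 in a library of cow 426 to 19.2 in a library of cow 419, a 515-fold range. Both genes were selected on genotype differences, which are part of this range between cows. Within a cow, the highest and lowest of the 3 muscle ratios differed by a median of 1.23-fold and by at most 3.76-fold, in cow 164. With batch A alone, the largest difference within a cow was 1.59-fold, and the range between cows was still 344-fold. In liver the range was 241-fold with a median of 1.62-fold within a cow. The libraries in doubt gave the largest differences within a cow, 68.5-fold in cow 3434 and 46.4-fold in cow 829. Without them and without batch B, the largest was 2.15-fold, in cow 756, over 13 cows with at least 2 libraries.

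**Figure D2:**
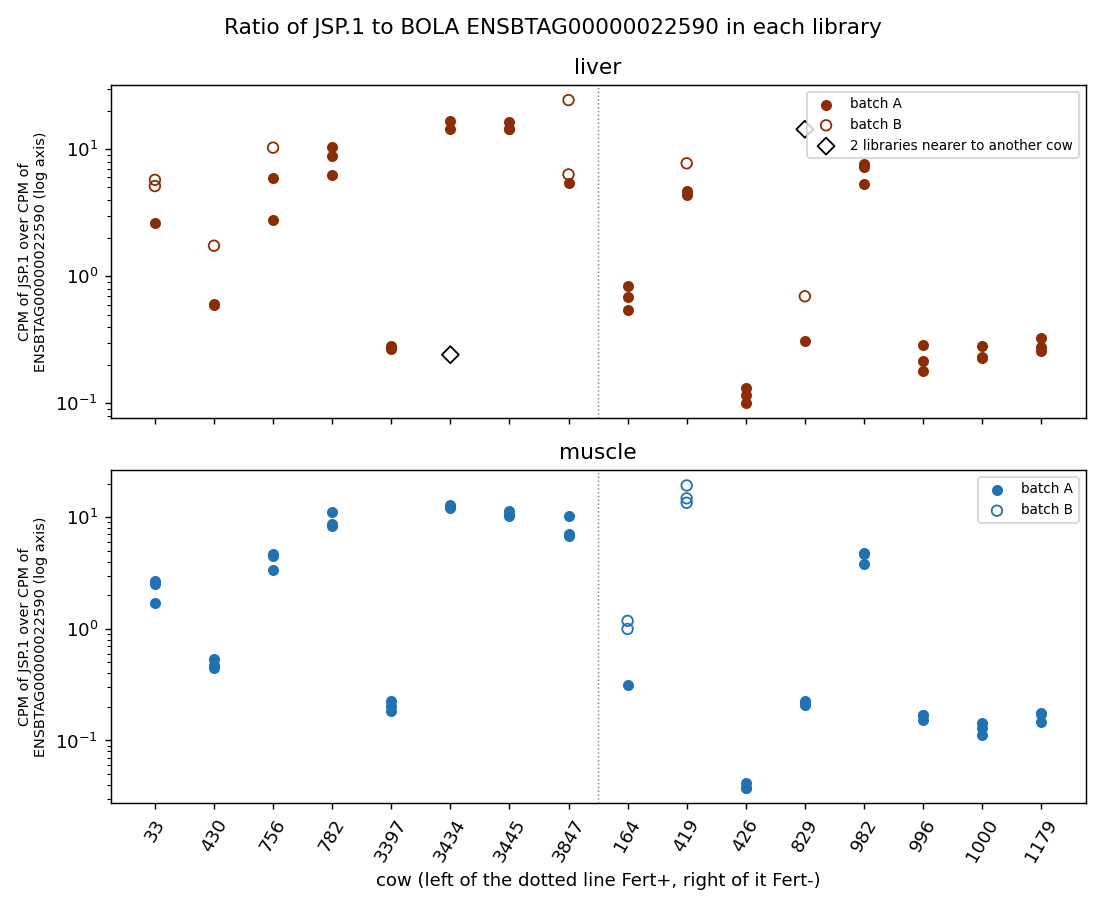
CPM of JSP.1 divided by CPM of BOLA-22590 on a log axis (vertical) in each liver (top) and muscle (bottom) library of the 16 cows (horizontal). In batch A (filled points) the muscle ratios of a cow differ by at most 1.59-fold while cows span 344-fold, and the 2 diamonds in liver lie with the other cow's ratios rather than their own.

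BOLA-02069 varied less between cows and was counted in every library. Its muscle cow means ran from 46.0 CPM in cow 3445 to 180 CPM in cow 33, a 3.90-fold range, and its liver cow means from 77.4 CPM in cow 3445 to 478 CPM in cow 33, a 6.18-fold range. The same cows were thus lowest and highest in both tissues. The summed CPM of the 3 genes ranged over cows by 2.86-fold in muscle and 3.01-fold in liver, less than any of the 3 genes alone.

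A cow's level in liver went with its level in muscle. Over cows, 5 relations were computed on mean log2(CPM + 1) less the mean of each tissue and time-point, with permutation tests (two-sided) and Benjamini-Hochberg adjustment over the 5. For BOLA-02069, Pearson's r was 0.955 and Spearman's rho 0.947 over 16 cows (permutation p = 1e-05 for both, the smallest that the permutations can give; adjusted p = 5e-05), and r was 0.929 without the 2 cows farthest from the median in liver. For JSP.1, r was 0.855 and rho 0.862 (permutation p = 4e-05 for both; adjusted p = 0.0001), and r was 0.876 without the 2 farthest cows. With batch A alone and without the libraries in doubt, r was 0.918 for BOLA-02069 and 0.923 for JSP.1 over 15 cows. Genotype was not removed from the cow values. Relations of JSP.1 and BOLA-22590 therefore include the genotype difference on which these genes were selected.

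Because BOLA-22590 fell into 2 sets of cows, its liver and muscle levels were related within each set. Over the 7 high cows r was 0.809 and rho 0.857 (exact permutation p = 0.0079 and 0.024; adjusted p = 0.013 and 0.04), and r was 0.969 without the 2 farthest. Over the 9 low cows r was 0.634 and rho 0.450 (exact permutation p = 0.061 and 0.23; adjusted p = 0.061 and 0.23), and r was 0.317 without the 2 farthest, so no relation was shown there with all libraries. With batch A alone and without the 2 libraries in doubt, r was 0.983 over the 7 high cows and 0.929 over 8 low cows (exact permutation p = 0.0012 and 0.0016; adjusted p = 0.002 for both). In that setting r fell to 0.830 and 0.779 without the 2 farthest cows of each set.

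BOLA-02069 and JSP.1 tended to go opposite ways over the 16 cows. Pearson's r was -0.503 and Spearman's rho -0.485 (permutation p = 0.046 and 0.059; adjusted p = 0.058 and 0.074), and r was -0.339 without the 2 farthest cows, so this relation did not pass the adjustment and rested in part on those 2 cows. In batch A without the libraries in doubt, r was -0.638 and rho -0.656 (permutation p = 0.0076 and 0.0071; adjusted p = 0.0076 and 0.0089), and -0.493 without the 2 farthest cows.

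Among the other 11885 genes that passed the filter in both tissues, the 3 whose cow means were most like those of BOLA-22590 had Pearson's r of 0.758 to 0.761 over 16 cows, and ENSBTAG00000005146 led both in all libraries and in batch A without the libraries in doubt (r = 0.811). The 3 most alike reached 0.760 for BOLA-02069 and 0.728 for JSP.1, and the 3 most opposite reached -0.811 for BOLA-02069, -0.757 for BOLA-22590 and -0.738 for JSP.1. These are the extremes of 11885 values over 16 cows that share libraries, given without a p.

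All 3 genes had more counts in liver than in muscle, where counts are shares of each tissue's own RNA. In a pool of cells such as a biopsy, fewer cells of a type and less RNA per cell cannot be told apart. BOLA-02069 had 79.9, 175 and 491 CPM (lowest, median, highest of 16) in liver at LP and 42.9, 107 and 192 CPM in muscle, and was higher in liver in 16 of 16 cows at each time-point. Its log2 fold change of liver over muscle was 0.87 ± 0.08 (SE, n = 16 cows) at LP, 1.33 ± 0.13 at EL and 1.10 ± 0.08 at ML (edgeR quasi-likelihood test with cow as block, adjusted p = 4.92e-10, 4.67e-09 and 1.49e-11).

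JSP.1 was higher in liver in 14 of 16 cows at each time-point. At LP it had 17.4, 61.0 and 117 CPM in liver and 5.95, 21.1 and 109 CPM in muscle, so the tissues overlapped. The log2 fold changes were 0.98 ± 0.21, 1.05 ± 0.21 and 0.96 ± 0.18 at LP, EL and ML (edgeR adjusted p = 0.000181, 0.000122 and 5.30e-05). Counting batch B was found in 8 liver and 5 muscle libraries. With batch as a term, the 3 values were 0.88, 0.96 and 0.89.

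BOLA-22590 differed less between tissues, and here the libraries in doubt decided one call. At LP it had 5.40, 14.2 and 169 CPM in liver and 3.63, 15.0 and 143 CPM in muscle, with a log2 fold change of 0.25 ± 0.23 that did not pass (edgeR adjusted p = 0.303), though liver was higher in 14 of 16 cows. Without the library labelled cow 829, LP, it was 0.44 ± 0.08 (adjusted p = 1.57e-05). At EL and ML the values were 1.0 ± 0.24 and 0.39 ± 0.11 (adjusted p = 0.00071 and 0.00205), and 0.84 at EL without the library labelled cow 3434.

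The tissue difference is common in these data. Genes called higher in liver were 46.3% of those tested at LP, 45.1% at EL and 46.1% at ML, beside which 2, 3 and 3 of the 3 class I genes were called. The partner of the heavy chains, B2M, was also higher in liver, by 0.91 ± 0.08, 1.07 ± 0.12 and 1.27 ± 0.10 on the log2 scale (edgeR adjusted p = 7.61e-10, 2.52e-08 and 1.28e-10). Its level was 684, 1290 and 1762 CPM in liver and 525, 621 and 844 CPM in muscle at LP. PSMB9, a subunit of the immunoproteasome that cuts peptides for class I, was higher in liver by 1.03 to 1.47 on the log2 scale. CALR and PDIA3, chaperones of the endoplasmic reticulum that help load class I, were higher by 2.73 to 3.41. Summed macrophage and dendritic cell markers (5 with an identifier of 14 listed: C1QA, C1QB, C1QC, MARCO and VSIG4) were 403 to 1099 CPM in liver and 3.87 to 27.4 CPM in muscle at LP, and their part in the tissue difference was not tested.

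Over time, the clearest change in liver was a rise from EL to ML. BOLA-02069 had 59.9, 195 and 446 CPM in liver at EL and 92.4, 289 and 497 CPM at ML, with broad overlap between cows. Within cows it rose from EL to ML in 12 of 16, by 0.44 ± 0.14 on the log2 scale (edgeR adjusted p = 0.0134), and ML exceeded LP in 14 of 16 cows by 0.47 ± 0.14 (adjusted p = 0.0216; 0.0521 without cow 426). From LP to EL it was level, at 0.03 ± 0.14 (adjusted p = 0.918), higher in 8 cows and lower in 8, where 2.4% of genes tested were called in either direction.

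JSP.1 in liver had 9.93, 34 and 160 CPM at EL and 16.7, 59.9 and 180 CPM at ML. The difference was 0.55 ± 0.21 (edgeR adjusted p = 0.0358), with 12 of 16 cows higher. This call was fragile: it was lost when any of 9 cows was left out (adjusted p up to 0.0828, without cow 430) and without the 2 libraries in doubt (0.48, adjusted p = 0.0536), and it was firmer with batch as a term (0.56 ± 0.15, adjusted p = 0.00338). EL against LP was -0.30 ± 0.21 and ML against LP 0.25 ± 0.21 (adjusted p = 0.428 and 0.454).

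BOLA-22590 in liver passed at no time-point. The log2 differences were 0.40 ± 0.29 from LP to EL, -0.11 ± 0.29 from EL to ML and 0.29 ± 0.28 from LP to ML (edgeR adjusted p = 0.443, 0.787 and 0.525), and the first 2 were set by the 2 libraries in doubt: without them they were -0.03 ± 0.10 and 0.14 ± 0.10. Without batch B as well, EL to ML was 0.29 ± 0.10 (adjusted p = 0.039). Of all genes tested in liver, 21.4% were called higher at ML than at EL and 8.85% higher at ML than at LP, so calls for 2 of 3 and 1 of 3 class I genes were made where many genes moved.

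In muscle, all 3 genes were lowest at EL relative to the typical gene of the library. BOLA-02069 had 42.9, 107 and 192 CPM at LP, 30.1, 84.8 and 140 CPM at EL and 56.5, 131 and 227 CPM at ML. It was lower at EL than at LP in 16 of 16 cows and higher at ML than at EL in 16 of 16, by -0.37 ± 0.06 and 0.60 ± 0.06 on the log2 scale (edgeR adjusted p = 6.90e-06 and 4.90e-10). BOLA-22590 followed in 16 of 16 cows each way, by -0.33 ± 0.06 and 0.48 ± 0.06 (adjusted p = 3.20e-05 and 3.91e-08), in cows with high and with low levels alike. JSP.1 was lower at EL in 15 of 16 cows and higher at ML in 16 of 16, by -0.29 ± 0.11 and 0.55 ± 0.11 (adjusted p = 0.021 and 3.08e-05), and the first was lost without cow 782 (adjusted p = 0.0617). The exception from LP to EL was cow 164, whose LP library was batch A and whose EL and ML libraries were batch B.

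These muscle changes depended on the scaling. With each library divided by its total count alone, the differences from LP to EL were -0.01 ± 0.08 for BOLA-02069, 0.04 ± 0.08 for BOLA-22590 and 0.08 ± 0.12 for JSP.1, none past the threshold and the last 2 of opposite sign. From EL to ML they were 0.18 ± 0.08, 0.06 ± 0.08 and 0.13 ± 0.12, of which BOLA-02069 alone passed (edgeR adjusted p = 0.0383). On that scale the median of all 12675 genes tested rose by 0.37 from LP to EL and changed by -0.40 from EL to ML, against 0.01 and 0.01 under TMM, so the muscle values under TMM are relative to a median gene that rose and fell as a share of all counts. The shift went with counts of muscle markers, whose summed CPM had a median of 242827 at LP, 88780 at EL and 270619 at ML.

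**Figure D3:**
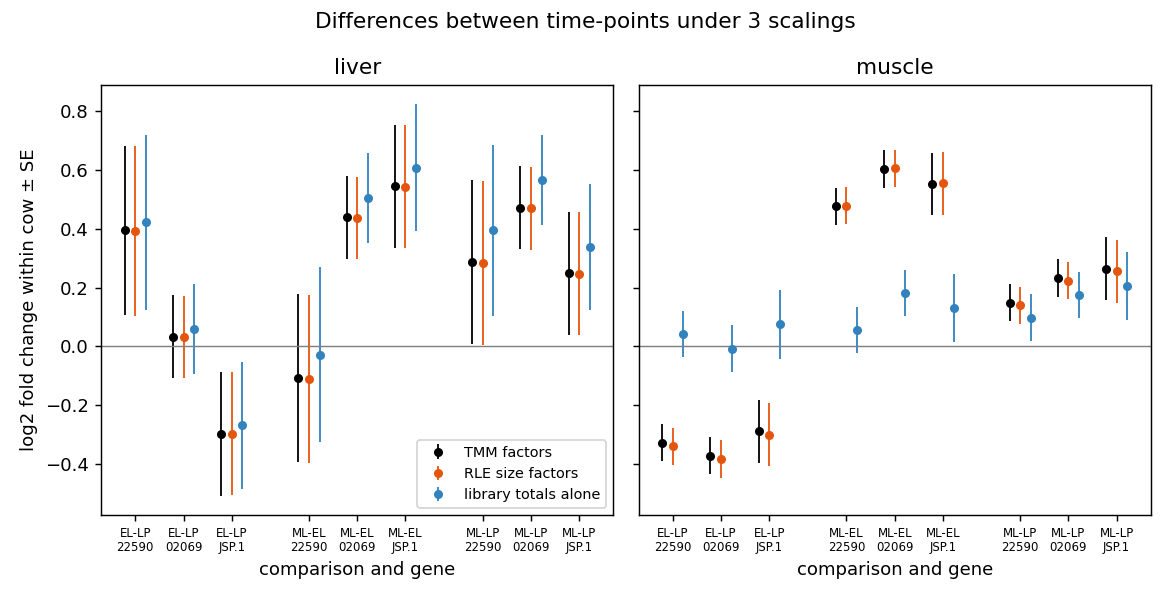
Log2 fold change within cow ± SE (vertical) of the 3 genes for each pair of time-points (horizontal) in liver (left) and muscle (right), with TMM factors, RLE size factors and library totals alone. In liver the 3 scalings lie within an SE of each other, whereas in muscle the values from LP to EL move from -0.37 to -0.29 under TMM to -0.01 to 0.08 with library totals.

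From LP to ML in muscle, where the median gene moved by 0.01 under TMM and -0.04 with library totals, BOLA-02069 was higher in 14 of 16 cows, by 0.23 ± 0.06 (edgeR adjusted p = 0.0159), and 0.18 ± 0.08 with library totals (adjusted p = 0.174). BOLA-22590 and JSP.1 were at 0.15 ± 0.06 and 0.26 ± 0.11 (adjusted p = 0.127 and 0.115) with 11 and 13 of 16 cows higher. Summed hepatocyte markers in muscle had medians of 3.13, 2.85 and 13.1 CPM at LP, EL and ML, and reached 202 CPM in one ML library. In liver the same list summed to 143179 CPM (median at ML), and the part of liver RNA in the muscle rise at ML was not tested. Of the genes tested in muscle, 27.5% were called lower at EL than at LP, 31.5% higher at ML than at EL and 4.16% higher at ML than at LP, beside which 3, 3 and 1 of the 3 class I genes were called.

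**Figure D4:**
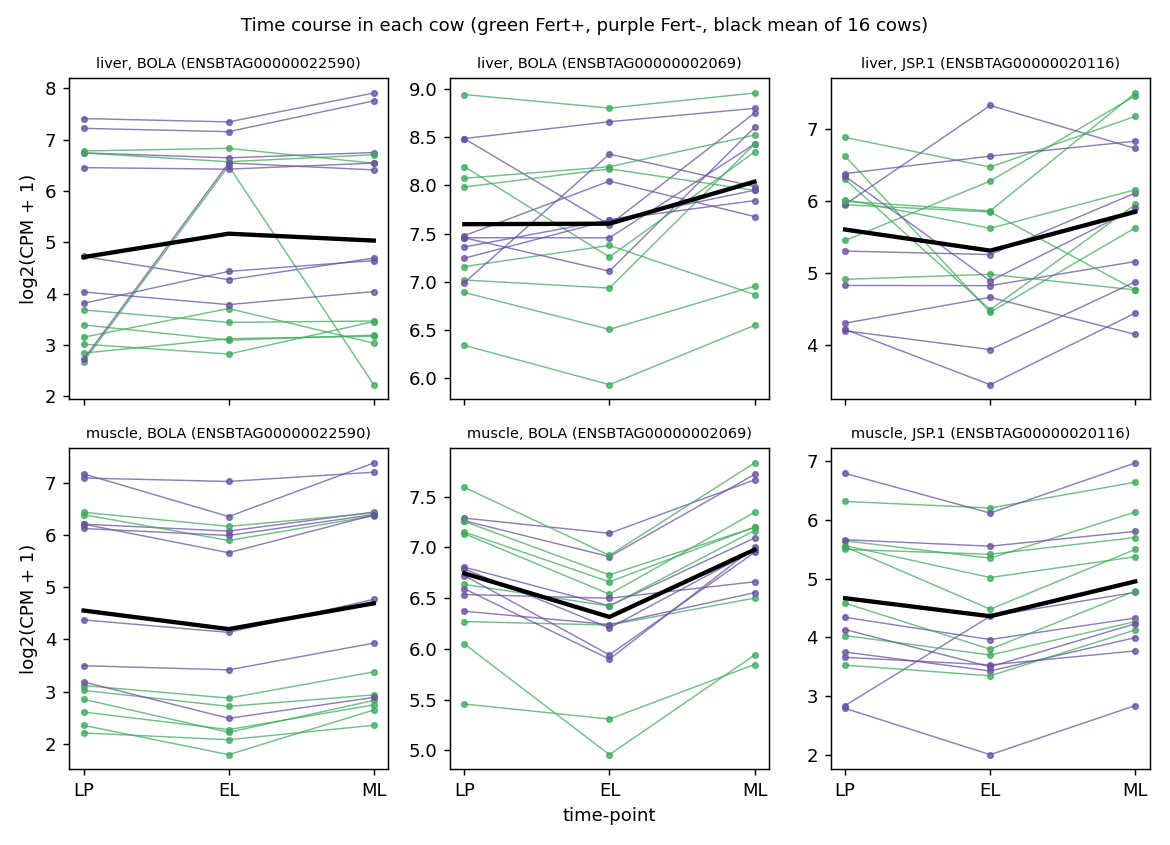
log2(CPM + 1) of the 3 genes (vertical) in each cow at LP, EL and ML (horizontal), in liver (top) and muscle (bottom), with Fert+ cows in green, Fert- cows in purple and the mean of 16 cows in black. In muscle the lines of 16 of 16 cows dip at EL for both BOLA genes under TMM scaling. For BOLA-22590 in muscle the high cows stay above the low cows at every time-point.

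The difference between tissues in the time course did not pass for any of the 3 genes. The log2 difference of the liver and muscle changes from LP to EL was 0.69 ± 0.30 for BOLA-22590, 0.37 ± 0.16 for BOLA-02069 and -0.04 ± 0.24 for JSP.1 (edgeR adjusted p = 0.0738, 0.0653 and 0.934), beside 11.5% of genes called higher. From EL to ML the values were -0.54 ± 0.29, -0.12 ± 0.16 and 0.05 ± 0.24 (adjusted p = 0.146, 0.598 and 0.911), beside 16.7% called lower. From LP to ML they were 0.15 ± 0.29, 0.26 ± 0.16 and 0.0038 ± 0.24 (adjusted p = 0.811, 0.32 and 1), beside 9.28% called in either direction. Without the 2 libraries in doubt, BOLA-22590 was at -0.28 ± 0.11 from EL to ML and was called (adjusted p = 0.0331).

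Other genes of antigen presentation, from lists of symbols, were measured where an identifier was known: 4 of 15 class I partners, 4 of 10 other class I or class I-like genes and 8 of 18 class II genes. In muscle, 8 of 8 class II genes were called lower at EL than at LP and 8 of 8 higher at ML than at EL, with median log2 changes of -0.88 and 0.92 beside 0.01 and 0.01 over all genes. Of all genes tested, 27.5% were called lower and 31.5% higher in these comparisons. With library totals, 7 and 6 of the 8 were still called, with medians of -0.51 and 0.50, so the medians kept their sign on both scales. Of 12675 genes tested with library totals, 1103 were called lower from LP to EL and 1258 higher from EL to ML. With library totals BOLA-22590 and JSP.1 changed sign from LP to EL, and 1 of the 3 class I genes, BOLA-02069, was still called, from EL to ML. CD74, the invariant chain that escorts class II molecules, had 240, 107 and 268 CPM (medians at LP, EL and ML), and changed by -0.96 ± 0.09 and 1.14 ± 0.09 (edgeR adjusted p = 2.71e-10 and 2.20e-12). BOLA-DRA, the class II alpha chain, changed by -0.87 ± 0.13 and 0.81 ± 0.12 (adjusted p = 4.38e-07 and 9.52e-07), and BOLA-DQA1 by -0.94 ± 0.13 and 1.07 ± 0.13 (adjusted p = 1.76e-07 and 7.92e-09).

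In liver, 8 of 8 class II genes were called higher at ML than at EL (median 0.85) and 7 of 8 higher at ML than at LP (median 0.54), and 0 of 8 from LP to EL. The shares of all genes tested in liver were 21.4%, 8.85% and, in either direction, 2.4%. There, HLA-DQB2 had the largest change from EL to ML, 0.98 ± 0.26, followed by BOLA-DQA2 at 0.90 ± 0.22 and BOLA-DQB at 0.87 ± 0.15 (edgeR adjusted p = 0.00367, 0.00234 and 9.04e-05).

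The partners of class I did not move as one. B2M and PSMB9 were called lower in muscle from LP to EL, by -0.33 ± 0.06 and -0.40 ± 0.11 (edgeR adjusted p = 3.60e-05 and 0.00274), and higher from EL to ML, by 0.25 ± 0.06 and 0.62 ± 0.11 (adjusted p = 0.000948 and 1.29e-05). CALR and PDIA3, like 29.9% of genes tested from LP to EL and 31.5% from EL to ML, went the other way, by 0.31 ± 0.08 and 0.26 ± 0.06 from LP to EL and -0.32 ± 0.08 and -0.27 ± 0.06 from EL to ML. With library totals 2 of these 4 partners were called higher and 0 lower from LP to EL, where 7492 of all 12675 genes tested were called higher and 1103 lower. In liver from EL to ML, B2M rose by 0.53 ± 0.12 and PSMB9 by 0.43 ± 0.14 (adjusted p = 0.000659 and 0.0136), while CALR fell by 0.82 and PDIA3 by 0.63 on the log2 scale (adjusted p = 0.00228 and 0.00537), as did 20.3% of genes tested.

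BOLA-NC1, a non-classical class I gene, rose from EL to ML in liver by 0.61 ± 0.13 and in muscle by 0.38 ± 0.08 (edgeR adjusted p = 0.000769 and 0.000197). In muscle, MICB, a ligand of the NK cell receptor NKG2D, rose by 0.47 ± 0.16 and FCGRT, the heavy chain of the neonatal Fc receptor, by 0.52 ± 0.11 (adjusted p = 0.00875 and 9.39e-05). FCGRT fell in liver by 0.35 on the log2 scale (adjusted p = 0.00331), and its time course differed between the tissues (-0.82 ± 0.15, adjusted p = 6.72e-06). With library totals, 0 of the 3 genes of this list that were tested in muscle were called.

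Markers of blood and immune cells were few. Of 16 T, NK and B cell markers, CD8B and CD79B had an identifier, and their summed CPM in muscle had medians of 0.644, 0.317 and 0.761 at LP, EL and ML. In liver the medians were 2.10, 1.59 and 2.88 CPM. Summed macrophage markers in liver had medians of 773, 628 and 896 CPM at LP, EL and ML, and in muscle 9.50, 11.0 and 8.22 CPM. The markers of T and B cells and, in liver, of macrophages had higher medians at ML than at EL, as did BOLA-02069 and JSP.1 in both tissues and BOLA-22590 in muscle, and their part in the changes of the class I genes was not tested. Of 23 interferon response genes, 5 had an identifier (ISG15, MX1, OAS1Y, IFI6 and CXCL10). From EL to ML 3 were called lower and 1 higher in each tissue, where 20.3% of all genes tested were called lower and 21.4% higher in liver and 31.5% each way in muscle, with medians of -0.56 in liver and -0.35 in muscle. Median CPM at ML was above that at EL for CXCL10 and IFI6 in both tissues, and below it for ISG15, MX1 and OAS1Y. The class I genes called between these time-points were higher, and the part of interferon in the changes of the class I genes was not tested.

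Counting batch moved JSP.1. In the 6 cows with both batches in liver, JSP.1 was higher in batch B in 6 of 6, by 1.08-fold to 3.0-fold with a median of 2.53-fold. The lowest ratio was that of cow 829, whose batch A mean holds a library in doubt, and without that library the lowest of the 6 was 1.92-fold, in cow 419. Cow 430, for example, had 180 CPM in its batch B library and a mean of 60.1 CPM in the other 2. The log2 difference of batch B over A within cows was 1.23 ± 0.21 (edgeR adjusted p = 0.000144), when 2.26% of the genes tested were called higher. In muscle, cow 164 was the one cow with both batches and had a mean of 22.9 CPM in B and 6.19 CPM in A, 3.70-fold apart. The fitted muscle value of 2.02 ± 0.26 (adjusted p = 3.44e-06), beside 0.418% of genes called higher, therefore rests on that cow. BOLA-22590 and BOLA-02069 were at 0.28 ± 0.39 and 0.44 ± 0.19 in liver (adjusted p = 0.981 and 0.493) and 0.23 ± 0.22 and 0.24 ± 0.23 in muscle (adjusted p = 1 for both), so neither passed the test. Within cows in liver, batch B was the higher for BOLA-22590 in 6 of 6 (median 1.16-fold) and for BOLA-02069 in 5 of 6 (median 1.36-fold), and without the library in doubt in 5 of 6 each (1.10-fold and 1.28-fold).

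Between the genotypes, BOLA-22590 was higher in Fert- and JSP.1 mostly higher in Fert+, and in every tissue and time-point the 2 groups of 8 overlapped. In muscle at LP, BOLA-22590 had 3.63, 6.69 and 85.5 CPM in Fert+ and 8.11, 70.9 and 143 CPM in Fert-. The high set holds 5 of 8 Fert- cows but 2 of 8 Fert+ cows, and both sets of cows occur in both genotypes. Within the low set, liver values at LP were at least 13.1 CPM in Fert- cows and at most 11.9 CPM in Fert+ cows. In muscle, the low cows of the 2 genotypes overlapped at EL and ML. High cows of the 2 genotypes overlapped in both tissues at LP. The log2 values of Fert+ over Fert- were -1.44 ± 0.84, -1.44 ± 0.80 and -1.59 ± 0.84 (SE) in muscle and -1.11 ± 0.88, -0.91 ± 0.71 and -1.74 ± 0.81 in liver at LP, EL and ML. Without the 2 libraries in doubt, the liver medians at EL were 9.87 CPM in Fert+ and 88.8 CPM in Fert-. With them, the Fert+ median was 11.0 CPM. At LP the Fert- median was 56.2 CPM with the library labelled cow 829 and 86.9 CPM without it, beside 8.70 CPM in Fert+.

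JSP.1 in muscle had 10.6, 44.8 and 78.2 CPM at LP in Fert+ and 5.95, 14.5 and 109 CPM in Fert-, where the highest cow was 419, a batch B library. The log2 values of Fert+ over Fert- in muscle were 0.43 ± 0.60, 0.38 ± 0.54 and 0.38 ± 0.58, and in liver 0.69 ± 0.38, -0.01 ± 0.51 and 0.71 ± 0.49. Batch B was unevenly spread: in liver 6 of 8 such libraries were Fert+, and in muscle 5 of 5 were Fert-. In batch A alone, the highest Fert- value at LP in muscle was 49.5 CPM and the Fert- median 12.5 CPM. The log2 values of JSP.1 in batch A were 1.16 ± 0.50, 0.95 ± 0.55 and 1.10 ± 0.53 in muscle and 0.61 ± 0.42, 0.37 ± 0.49 and 0.17 ± 0.52 in liver, larger than with all libraries in muscle and smaller in liver at ML. BOLA-02069 had 42.9, 119 and 192 CPM in Fert+ and 81.8, 107 and 155 CPM in Fert- in muscle at LP, and its 6 log2 values lay between -0.27 and 0.08, each within its SE of 0 (SE 0.24 to 0.35). In batch A its liver values were -0.35 ± 0.31, -0.38 ± 0.35 and -0.49 ± 0.36, so that the value at LP changed sign from 0.08.

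Across all genes, the fit that allows each gene its own spread called 0% of genes between the genotypes at 5 of the 6 tissue and time-point combinations and 0.00831% (1 gene) in muscle at EL. At an unadjusted p under 0.05 there were 800 to 1640 genes, and DESeq2's Wald test called 0 to 119. Of the genes of antigen presentation, 0 were called in any of the 6.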

How the data were processed

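Liver and muscle RNA of 16 cows was sequenced in read pairs. Per the labels and the study's methods, the authors called bases with CASAVA 1.8, aligned reads with STAR to 1 reference (UMD3.1) at a low mismatch limit and counted them per Ensembl gene with featureCounts. The deposited values are raw counts, 1 file per library, and near-identical class I copies may share or lose reads. The 2 tables of the whole series, with 96 unnamed columns, were not used.

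Counts were tested with edgeR 4.0.16 (R 4.3.3; quasi-likelihood, TMM factors, filterByExpr, Benjamini-Hochberg over all genes, threshold 0.05). Cow was the block for time-points (each tissue apart), tissues (each time-point apart) and their interaction; genotype fits had 8 cows a group. The cow number in the titles pairs libraries of 1 animal: their deviations from group means correlated at medians of 0.221 (liver) and 0.258 (muscle) between time-points and 0.135 between tissues. CPM used TMM over 96 libraries, with 1 added before logs. SEs were derived from the log2 fold change and its quasi-likelihood F. With cow as block they cover how far within-cow differences vary between these cows. In the genotype fits they cover the spread between cows.

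Named genes were the 3 genes, B2M, PSMB9, CD74 and BOLA-DRA, up to 3 genes of a list with the largest change in a comparison, and the 3 most and least alike over cows. Symbols (2256) came from the study's spreadsheets. The genes and lists were chosen with earlier results of these data known. The time-point and genotype tests were tried on simulated liver counts whose means held no cow or batch effect. The muscle, tissue and interaction fits were not simulated. Alternatives were RLE factors, no filter, DESeq2 1.42.0, no block, no batch B, each cow left out, sign-flip permutation and a pseudocount of 0.1. Batch as a term, library totals, and leaving out the 2 doubtful libraries were added after the data were seen. Sequences and coordinates were not used here.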

Additional observations from a re-analysis of the deposited data

How the results depend on the processing

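RLE size factors and DESeq2 changed no direction and no call among the 18 time-point and 9 tissue differences, and neither did leaving out batch B or adding batch as a term. Library totals alone gave, in muscle, -0.0072, 0.042 and 0.076 for BOLA-02069, BOLA-22590 and JSP.1 from LP to EL (log2), 0.056 for BOLA-22590 and 0.13 for JSP.1 from EL to ML, and 0.18 for BOLA-02069 from LP to ML, none past the threshold. They called BOLA-22590 between tissues at LP (0.50) and turned the interaction of BOLA-02069 from EL to ML (0.32). Over all genes, that scaling moved the calls in muscle from 3786 higher and 3485 lower to 7492 and 1103 (LP to EL), from 3992 and 3989 to 1258 and 7759 (EL to ML) and from 527 and 611 to 254 and 825 (LP to ML), and in liver from 144 and 188 to 194 and 75, from 2950 and 2799 to 3020 and 1769 and from 1222 and 873 to 1380 and 368. Interaction calls went from 1684 and 2535 to 558 and 5488 (2264 and 1819 with RLE), from 3215 and 2446 to 7324 and 775 (2491 and 3024 with RLE) and from 720 and 636 to 1232 and 333, and tissue calls at ML from 6463 and 6027 to 7727 and 4532. In liver from LP to EL, 332 genes were called, 193 with no filter, 895 by DESeq2 and 0 without batch B (1624 at an unadjusted p under 0.05). From LP to ML, 2095 were called and 1317 without batch B and the 2 libraries in doubt.

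The fit with no replicate block, which drops the pairing by cow, kept the direction of the time-point and tissue differences but lost 12 calls. From EL to ML in liver BOLA-02069 was at 0.42 and JSP.1 at 0.51, and BOLA-02069 at 0.44 from LP to ML. In muscle the values from LP to EL were -0.37, -0.30 and -0.31 for BOLA-02069, JSP.1 and BOLA-22590, from EL to ML 0.54 for JSP.1 and 0.41 for BOLA-22590, and 0.24 for BOLA-02069 from LP to ML. Between tissues, JSP.1 at LP (0.72) and BOLA-22590 at EL (0.90) and ML (0.36) lost the call, and the interaction of JSP.1 from LP to EL was 0.16. The cause is in the construction: differences between cows enter the error of this fit.

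Without the 2 liver libraries in doubt, from LP to EL BOLA-02069 was at -0.031 and BOLA-22590 at -0.026, and from EL to ML BOLA-22590 was at 0.14 and JSP.1 at 0.48, which lost its call. BOLA-22590 gained a call between tissues at LP (0.44). In the interaction, JSP.1 was at 0.11 (LP to EL) and -0.018 (EL to ML), and BOLA-22590 at -0.28 (EL to ML, called) and -0.020 (LP to ML). Adding batch as a term to that gave -0.041, -0.030 and 0.14 for BOLA-02069 and BOLA-22590 from LP to EL and BOLA-22590 from EL to ML, and leaving out batch B gave -0.079, -0.082 and 0.29.

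The interaction of BOLA-02069 from LP to EL passed with RLE factors (0.46), no filter (0.45) and batch as a term (0.38), and that of BOLA-22590 with RLE factors (0.77). Those of JSP.1 lay near 0 and changed sign with RLE factors (0.041 and -0.04), no filter (0.041, -0.075 and -0.034) and batch as a term (-0.00049), and the cause was not tested. With no filter, JSP.1 in liver from EL to ML lost its call at 0.54. The exact permutation test over cows called JSP.1 (0.28) and BOLA-22590 (0.14) in muscle from LP to ML, where no adjustment over genes applies, and with a pseudocount of 0.1 gave 0.30 and 0.15, and -0.32 for JSP.1 from LP to EL, no longer past the threshold.

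With each cow left out in turn, BOLA-02069 in liver ranged from -0.058 to 0.10 (LP to EL) and 0.40 to 0.52 (LP to ML), BOLA-22590 in liver from -0.16 to 0.15 (EL to ML), JSP.1 in liver from 0.46 to 0.64 (EL to ML) and JSP.1 in muscle from -0.39 to -0.24 (LP to EL). The other time-point differences kept direction and call. The genotype values moved by less than 1 SD between cows under each alternative, though not always by less than their SE: without batch B, JSP.1 in muscle at LP went from 0.43 to 1.16 and BOLA-02069 in liver at LP from 0.08 to -0.35. Without cow 419, JSP.1 was at 1.16 (LP) and 1.07 (ML) in muscle, and without cow 430 BOLA-22590 was at -2.13 in muscle at EL and -2.33 in liver at ML. Without cow 3397, BOLA-22590 was at -1.70 in liver at LP. Values near 0, those of BOLA-02069 in muscle at LP and EL and JSP.1 in liver at EL, changed sign under some alternatives. The main limits are 16 cows, alignment to 1 reference, and 2 libraries and 1 batch that the labels do not explain.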

Other observations

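Lists of other cell types are given here as values. Of 8 neutrophil genes, S100A8, S100A9 and S100A12 had an identifier. Their summed CPM in liver had medians of 4.15, 6.18 and 5.42 at LP, EL and ML and reached 260 CPM in one EL library, and 2 of the 3 were called lower at ML than at EL, as were 20.3% of all genes tested. In muscle 2 of 2 tested were called higher at EL than at LP and lower at ML than at EL, with median log2 changes of 1.30 and -1.23, and 1.66 and -1.65 with library totals. Under TMM, 29.9% and 31.5% of all genes tested in muscle were called in these directions. Of 6 endothelial genes, VWF and TEK had an identifier, and both were called higher in liver at ML than at EL, as were 21.4% of all genes tested. None of the 5 general leukocyte genes had one.

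A gene, tissue, time-point and genotype define 36 groups of 8 cows. Of these, 0 held a library called apart from the rest by Dixon's 95% criterion, which chance alone would meet in about 1 group in 20. This does not show that no library stood apart in CPM. For JSP.1 in muscle of Fert- cows, cow 419 (batch B) had 109 CPM at LP and 123 CPM at ML. The next highest cow, 982, had 49.5 and 54.7 CPM. For BOLA-22590 the criterion could not single out the liver libraries in doubt, because other cows of their groups had similar levels.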
